A study of Mus musculus with 36 samples.

Results

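The CC chemokine genes other than Ccl19 that were followed here are 10 of the 24750 genes of the table: Ccl2, Ccl3, Ccl4, Ccl5, Ccl6, Ccl7, Ccl8, Ccl9, Ccl11 and Ccl28. They were taken by symbol, each matched one row of the table, and their values were compared over the 12 groups of the study. RNA had been sequenced from epididymal white adipose tissue (eWAT) of 36 male mice on the C57BL/6 background, 3 in each group, so that all mice were males and all were 16 weeks old at collection. Wild-type (WT) mice and mice with Ccl19 knocked into the Adipoq locus (CCL19-KI), in which Ccl19 is thus driven from an adipocyte gene, received a normal diet (ND), a diet with 40% fat (40% HFD) or a diet with 60% fat (60% HFD) for 10 weeks. For the last 2 weeks, 18 of the mice carried a ligature around the upper second molars on both sides (ligature-induced periodontitis, LIP) and 18 did not. The CCL19-KI mice came from a homozygous line and the WT mice from separate matings, so genotype and breeding cannot be told apart, and lymph nodes had been removed before RNA extraction per the methods of the study.

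CC chemokines are small secreted proteins that attract leukocytes through G protein-coupled receptors of the CCR family, and their name comes from a pair of adjacent cysteines near the start of the mature protein. In adipose tissue, CCL2 is best known for drawing monocytes into the tissue through CCR2. CCL7 and CCL8 act on overlapping receptors, CCL11 (eotaxin) attracts eosinophils through CCR3, CCL3, CCL4 and CCL5 attract monocytes and T cells, CCL6 and CCL9 are rodent ligands of CCR1, and CCL28 acts through CCR3 and CCR10 at mucosal surfaces.

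The coding bases around the paired cysteines are shown for 9 of the members because this pair is what the rule of the family rests on. Each window holds 30 bases of the coding strand read 5′ to 3′ from GENCODE M21 on GRCm38, and the capitals mark the codons of the adjacent cysteines.
Ccl2 (chr11:82036494-82036523, + strand): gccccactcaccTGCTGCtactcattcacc
Ccl7 (chr11:82046526-82046555, + strand): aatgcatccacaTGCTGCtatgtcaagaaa
Ccl8 (chr11:82116044-82116073, + strand): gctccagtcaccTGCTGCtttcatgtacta
Ccl11 (chr11:82061684-82061713, + strand): atcccaacttccTGCTGCtttatcatgacc
Ccl4 (chr11:83663470-83663499, + strand): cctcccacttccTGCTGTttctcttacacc
Ccl5 (chr11:83529230-83529259, - strand): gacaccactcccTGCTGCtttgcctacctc
Ccl6 (chr11:83589374-83589403, - strand): acttcttcagacTGCTGCttctcttatgcc
Ccl9 (chr11:83575914-83575943, - strand): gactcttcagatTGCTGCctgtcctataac
Ccl28 (chr13:119645880-119645909, + strand): atggcctccagcTGTTGCactgaggtgtct
Only 1 such pair was found in the coding sequence of each of the 10 genes. The cysteine codons lay in exon 2 of a coding transcript with 3 exons in 8 members. In Ccl6 and Ccl9 they lay in exon 3 of 4, at codons 50 and 57, against codons 30 to 34 in the other 8. The coding sequences were 91 codons (Ccl5) to 148 codons (Ccl2) long.

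Of the 10 genes, 9 are on chromosome 11 in 2 blocks. Ccl2 (chr11:82035571-82037453), Ccl7, Ccl11 and Ccl8 lie on the + strand within 81.2 kb, and Ccl5, Ccl9, Ccl6, Ccl3 and Ccl4 (the last ending at 83664683) lie within 139 kb, on the - strand except Ccl4. The blocks are 1409 kb apart, and Ccl28 is on chromosome 13 (chr13:119623819-119654359). No exon of a member overlapped an exon of another gene. Of the 31-base stretches of the members' transcripts, 0% to 3.75% (Ccl9) also occurred in transcripts of other genes, and none was shared with another CC chemokine gene.

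Before the comparisons, Ccl19 was read in every library as a check of the genotype. It was 0.507 to 4.51 normalized CPM (reads scaled to the size of the library) in 17 libraries labelled WT and 5.57 to 34.6 in 17 labelled CCL19-KI. The library labelled WT, ND without LIP, replicate 2 had 19.2, and the library labelled CCL19-KI, 60% HFD without LIP, replicate 3 had 0.687. Gm2564 and Hist1h4m, at no more than 0.568 in the other WT and at least 6.97 in the other CCL19-KI libraries, went the same way in both, with 41.9 and 24.4 in the former and 0 and 0 in the latter. These 2 genes were chosen after their values were seen, so they are no independent check. Adipoq was 751 CPM in the former and 1095 in the latter. It was 615 to 3937 in the other WT and 300 to 1246 in the other CCL19-KI libraries, so it does not tell the genotype of either. Both libraries were kept under their labels, and values without them are given beside those results whose call or sign changed. Sequencing depth was 11962228 to 21581595 reads a library, 1 read was worth 0.0472 to 0.0834 CPM, and the mice of a group are separate animals per the labels. The libraries also differed in genes of neighbouring organs. The mean log2 level of 10 hepatocyte markers was 1.54 to 11.3 and that of 8 epididymis markers 0 to 8.82. The value of 8.82 is that of the library labelled WT, ND without LIP, replicate 2.

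Per kb of exon, Ccl6 and Ccl9 were the most abundant members in this tissue, and together they made up 38.2% to 81% (median 69.3%) of the summed level of the 10 genes. The median level per kb over the 36 libraries was 112 CPM for Ccl6, 51.9 for Ccl9, 28.3 for Ccl8, 24.6 for Ccl11, 6.8 for Ccl7, 3.48 for Ccl2, 1.55 for Ccl5, 0.362 for Ccl28, 0.25 for Ccl3 and 0.175 for Ccl4. Ccl6 was above Ccl9 in 36 of 36 libraries, Ccl9 above Ccl11 in 35, Ccl8 above Ccl7 in 36, Ccl7 above Ccl2 in 34 and Ccl5 above Ccl28 in 35. The order of Ccl11 and Ccl8 was not fixed, with Ccl11 the higher in 14 of 36 libraries, nor was that of Ccl28 and Ccl3 (20 of 36) or of Ccl3 and Ccl4 (23 of 36).

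**Figure D1:**
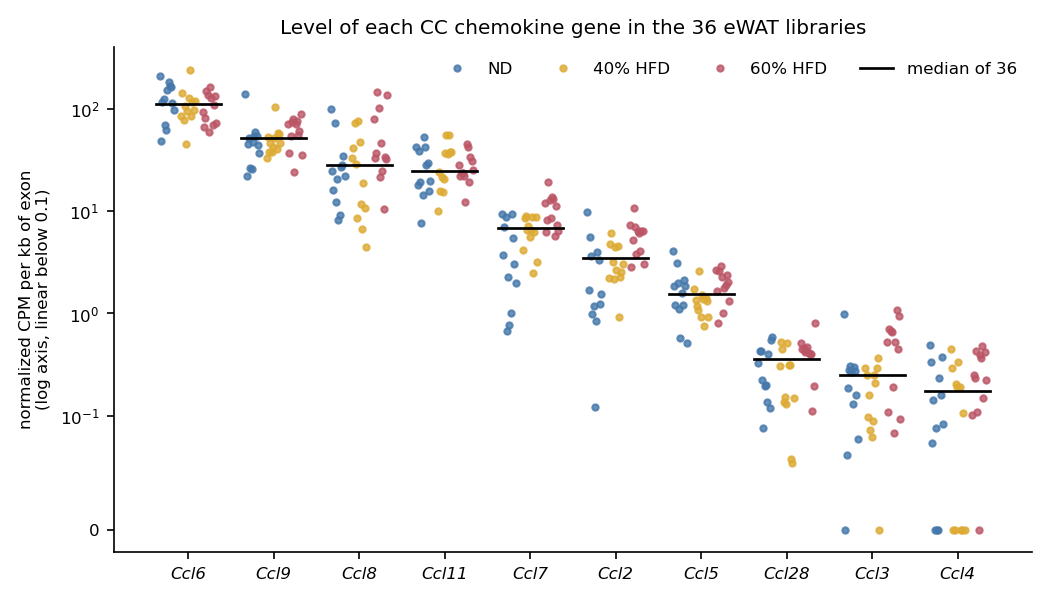
Level of each gene per kb of exon in normalized CPM (y axis, logarithmic and linear below 0.1) for the 10 CC chemokine genes (x axis), with 1 point per library coloured by diet and the line at the median of 36. Ccl6 (median 112) and Ccl9 (51.9) lie at the top and Ccl4 (0.175) at the bottom, where 9 libraries are at 0.

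Ccl3 and Ccl4, inflammatory ligands of monocytes and T cells, were close to the limit of detection. Ccl3 had 138 reads and Ccl4 had 72 reads in all 36 libraries together, with 2 and 9 libraries at 0. The highest values were 0.821 CPM for Ccl3 and 0.326 CPM for Ccl4, while 3 reads amount to 0.142 to 0.25 CPM. Neither passed the filter of at least 1 CPM in at least 3 libraries, and so neither was tested. Ccl3 had medians of 0.174, 0.141 and 0.402 CPM under ND, 40% and 60% HFD, and Ccl4 of 0.0778, 0.0981 and 0.16, with overlapping ranges. In the fit with no filter on low values, the log2 difference of 60% HFD from ND was 0.20 for Ccl3 (adjusted p = 0.146) and that from 40% HFD was 0.26 (unadjusted p = 0.00995, adjusted p = 0.248), and no averaged comparison of either gene was called. The other 8 members were tested with limma on log2(CPM + 1), in 1 fit of 17852 genes, and a call means an adjusted p below 0.05 over all of them.

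Under a 60% HFD, Ccl2 and Ccl7, ligands that attract monocytes, were higher than under an ND when averaged over genotype and ligature. Ccl2 was 0.138 to 11.1 CPM (median 1.86) in the 12 ND libraries, 1.04 to 6.9 (median 3.22) in the 12 of the 40% HFD and 3.25 to 12.1 (median 7.05) in the 12 of the 60% HFD. Ccl7 was 0.54 to 7.58 (median 2.7), 2.01 to 7.13 (median 5.24) and 4.61 to 15.4 (median 8) in the same order. The ranges of the 3 diets overlapped for both genes. The difference of the 60% HFD from ND on the log2(CPM + 1) scale was 1.22 (SE 0.28, limma adjusted p = 0.00441) for Ccl7 and 1.07 (SE 0.26, adjusted p = 0.00784) for Ccl2. These 2 of the 8 tested members were called, against 18.6% of all 17852 genes, and the median difference was 0.33 over the 8 members and 0.01 over all genes. Without the 2 libraries at odds with their labels the differences were 1.21 (adjusted p = 0.00929) for Ccl7 and 1.01 (adjusted p = 0.0113) for Ccl2.

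The 4 combinations of genotype and ligature did not contribute equally. Ccl2 in WT mice without LIP was 11.1, 1.95 and 6.3 CPM under ND and 8.25, 3.25 and 5.99 under 60% HFD. In CCL19-KI mice without LIP it was 4.15, 1.13 and 1.36 under ND and 12.1, 7.93 and 4.32 under 60% HFD. In ligatured WT mice it was 0.138, 0.963 and 4.57 under ND and 7.19, 6.9 and 4.67 under 60% HFD. The diets overlapped in WT mice without LIP, where the mean was lower under 60% HFD (5.83) than under ND (6.47), and they were separate in the 2 groups named after it. Where groups of 3 mice are said not to overlap, here and below, the share of all genes that did likewise was not counted. Separation of 3 against 3 mice has a p of 0.1 in an exact permutation test. In ligatured CCL19-KI mice Ccl2 was 3.76, 1.41 and 1.78 CPM under ND and 7.21, 7.27 and 3.5 under 60% HFD, so that 1 ND value lay inside the range of the 60% HFD. The log2 differences were 0.02 (adjusted p = 0.987), 1.53 (0.059), 1.63 (0.0929) and 1.09 (0.156) in the order of the groups above, and limma called none of these 4. The ND value of 1.95 is that of the library at odds with its label, and without both such libraries the difference in WT mice without LIP was -0.53 (adjusted p = 0.679), opposite in sign to the averaged difference. In WT mice without LIP the hepatocyte level was 1.54 to 1.85 under ND and 9.26 to 11.2 under 60% HFD, so it and the diet cannot be told apart there.

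Ccl7 in CCL19-KI mice without LIP was 7.08, 0.54 and 1.83 CPM under ND and 15.4, 10.3 and 6.92 under 60% HFD. This was the only one of the 4 diet comparisons of Ccl7 that was called, with a log2 difference of 1.79 (SE 0.55, adjusted p = 0.0417), although 1 ND mouse was above the lowest of the 60% HFD, the library at odds with its label. The call was lost without the ND replicate 2 (log2 difference 1.25, adjusted p = 0.231) or 3 (adjusted p = 0.157), and without the 60% HFD replicate 1 (0.103) or 2 (0.0571). In ligatured CCL19-KI mice it was 4.34, 2.46 and 1.59 under ND and 9.07, 5.88 and 5.14 under 60% HFD, with no overlap and a log2 difference of 1.05 (adjusted p = 0.191). In WT mice Ccl7 was 7.56, 2.95 and 5.6 under ND and 9.65, 5 and 6.6 under 60% HFD without LIP, and 0.621, 0.811 and 7.58 against 11, 10.5 and 4.61 with LIP. The groups overlapped in both, and the log2 differences were 0.37 (adjusted p = 0.769; 0.07 without the 2 libraries) and 1.65 (adjusted p = 0.104). Without the 2 libraries at odds with their labels, the differences in CCL19-KI mice without LIP were 2.06 for Ccl7 (adjusted p = 0.04) and 1.87 for Ccl2 (adjusted p = 0.034), where 8.51% of all genes were called. With edgeR on the reads the difference of Ccl7 there was 1.78 and was not called (adjusted p = 0.0967). In the fit of all libraries the share of genes called for 60% HFD against ND without LIP was 3.41% (WT) and 10.2% (CCL19-KI), and with LIP it was 2.57% (WT) and 12.8% (CCL19-KI).

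**Figure D2:**
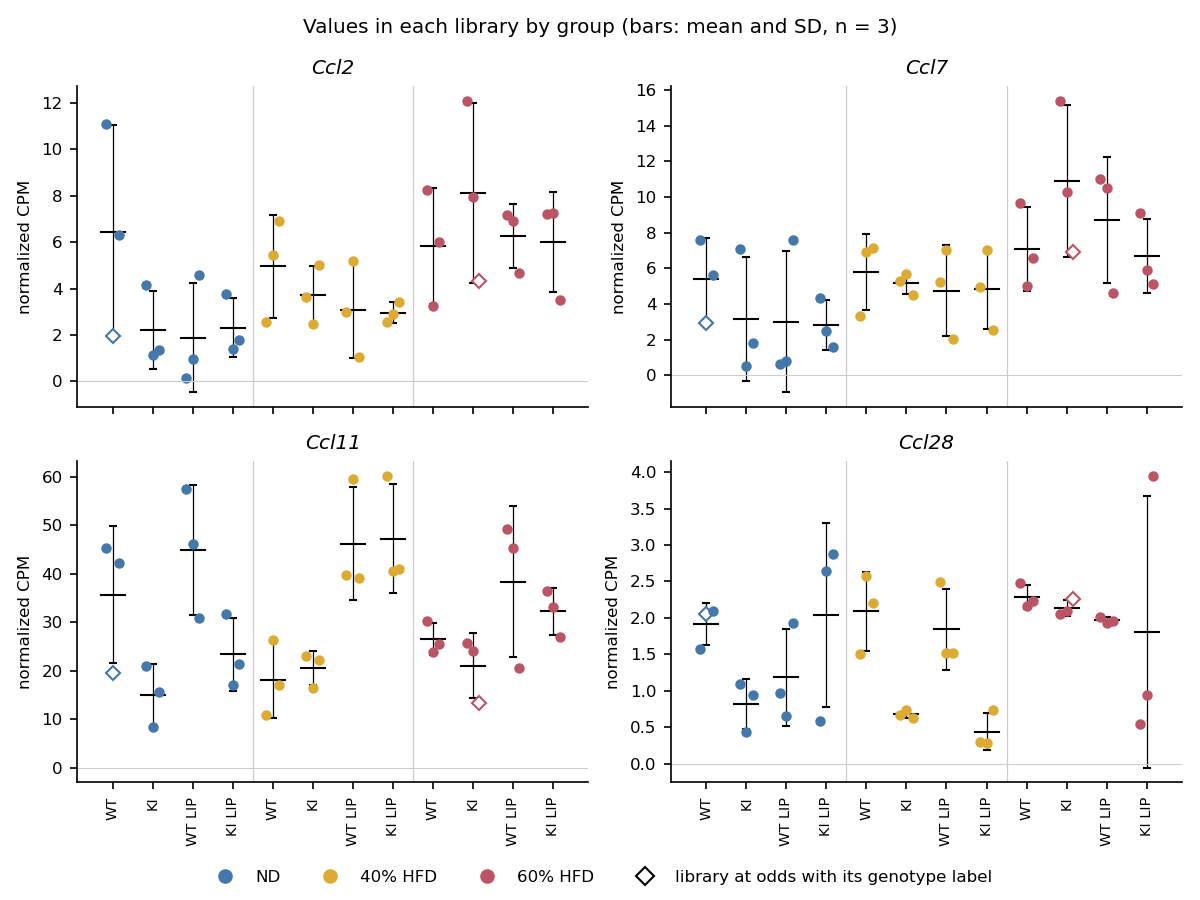
Normalized CPM (y axis) of Ccl2, Ccl7, Ccl11 and Ccl28 in the 12 groups (x axis), with 1 point per mouse, 3 per group, lines for the mean and bars for the SD, and open diamonds for the 2 libraries at odds with their genotype label. The highest single values of Ccl2 (12.1) and Ccl7 (15.4) are under 60% HFD, while Ccl2 reaches 11.1 in a WT mouse under ND without LIP. Ccl11 is higher with LIP under 40% HFD (39.1 to 60.2 against 10.8 to 26.3), and Ccl28 is lower in CCL19-KI mice under 40% HFD.

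Ccl8, a ligand close to Ccl2 and Ccl7 in sequence and position, varied widely. It was 4.14 to 50.4 CPM (median 12) under ND, 2.27 to 39.1 (median 12.1) under 40% HFD and 5.37 to 74.6 (median 17.9) under 60% HFD. The highest values were 74.6 and 51.8 in CCL19-KI mice under 60% HFD without LIP, 69.9 in a ligatured CCL19-KI mouse under 60% HFD and 50.4 in a WT mouse under ND without LIP. Within each of these groups another mouse was at 17.1 or lower. The log2 difference of 60% HFD from ND was 0.84 (SE 0.41, adjusted p = 0.148) and did not pass the test.

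In the averaged comparison of the 40% HFD with ND, limma called none of the members. The largest difference from ND was that of Ccl7, 0.62 on the log2 scale (SE 0.28, adjusted p = 0.151), followed by Ccl2 with 0.36 (SE 0.26, adjusted p = 0.394). With limma 0 of the 8 members and 9.21% of all genes were called, and edgeR called 0 members. An unadjusted p under 0.05 with limma was found for 1 member and for 4739 of all 17852 genes. Between the 60% and the 40% HFD, limma and edgeR called 0 of 8 members, and limma called 0.745% of all genes. At an unadjusted p under 0.05 with limma, 4 members passed (Ccl8, Ccl2, Ccl7 and Ccl28), as did 2356 of all 17852 genes. The log2 differences of the 60% from the 40% HFD were 0.99 (SE 0.41) for Ccl8, 0.70 (SE 0.26) for Ccl2, 0.60 (SE 0.28) for Ccl7 and 0.47 (SE 0.16) for Ccl28, with adjusted p from 0.166 to 0.347.

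Marker genes of macrophages moved with the diet as well. Of 8 genes of lipid-associated macrophages, 7 were called higher under 60% HFD than under ND, among them Itgax (log2 difference 2.14, adjusted p = 2.36e-04), Gpnmb (2.00) and Trem2 (1.17). Their mean log2 level was 2.93 to 6.54 (median 3.54) under ND and 4.12 to 7.02 (median 5.68) under 60% HFD. Of 12 general macrophage genes, 3 were called higher (Adgre1, Cd68 and Lgals3) and 1 lower (Cd163), with a mean level of 5.56 to 7.67 (median 6.55) under ND and 5.94 to 7.54 (median 7.03) under 60% HFD. None of the genes of either list was at 0 in any library. In bulk tissue, fewer cells of a type and less RNA per cell cannot be told apart, and the part of these cells in the higher Ccl2 and Ccl7 was not tested. Of the 10 hepatocyte genes, 9 were called higher too (median level 6.14 under ND and 9.9 under 60% HFD), and 5 of the 10 were at 0 in some library. Higher calls were also made for 2 of 4 tested neutrophil genes (Csf3r and S100a8), 2 of 5 endothelial genes (Tek and Cdh5), 3 of 6 kidney tubule genes (Slc34a1, Slc22a6 and Kap), 1 of 8 adipocyte genes (Lep) and 1 of 6 exocrine pancreas genes (Cela1). Lower calls were made for Pparg (adipocyte), Wt1 (mesothelial), Zbtb46 (dendritic cell) and Myh4 (skeletal muscle). No gene was called in the lists of T and NK cells, B cells, eosinophils and mast cells, fibroblasts and progenitors, epididymis and germ cells. Of all genes 18.6% were called in this comparison, and 54.8% of these calls were higher. The median log2 difference was -0.10 over the adipocyte genes and -0.52 over the exocrine pancreas genes. The part of these in the higher Ccl2 and Ccl7 was not tested. With the hepatocyte level as a covariate, Ccl2 (log2 difference 1.21, adjusted p = 0.0175) and Ccl7 (1.42, adjusted p = 0.00781) were called. That level itself differed between the diets, so this fit cannot tell it and the diet apart.

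With LIP, Ccl11, which attracts eosinophils, was higher in eWAT when averaged over genotype and diet. It was 8.26 to 45.4 CPM (median 22.6) in the 18 libraries without LIP and 17 to 60.2 (median 39.5) in the 18 with LIP. The log2 difference was 0.77 (SE 0.15, limma adjusted p = 0.0242), and it was 0.66 (adjusted p = 0.0418) without the 2 libraries at odds with their labels. Ccl11 was the 1 of 8 members called, against 0.325% of all genes (58 of 17852), and the median difference was -0.18 over the 8 members and -0.02 over all genes.

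The differences of Ccl11 with LIP were largest under the 40% HFD. WT mice had 10.8, 26.3 and 17.1 CPM without LIP and 39.8, 59.6 and 39.1 with LIP. CCL19-KI mice had 23.1, 16.5 and 22.1 without LIP and 60.2, 40.6 and 40.9 with LIP. In both genotypes every ligatured mouse was above every mouse without LIP. How many of all genes separated these groups was not counted. The log2 differences were 1.36 (limma adjusted p = 0.191) in WT and 1.15 (limma unadjusted p = 0.00413) in CCL19-KI mice, and neither was called. The ligature effect under 40% HFD differed by 0.75 from that under ND (limma adjusted p = 0.522). That under 60% HFD differed by -0.72 from that under 40% HFD (0.67), so a difference between the diets was not shown. The group means were 18.1 ± 7.8 (SD, n = 3) and 46.2 ± 11.6 in WT, and 20.5 ± 3.58 and 47.2 ± 11.2 in CCL19-KI mice.

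Under ND, Ccl11 was 45.4, 19.6 and 42.1 CPM in WT mice without LIP and 57.5, 46.2 and 30.8 with LIP. In CCL19-KI mice on the same diet it was 20.9, 8.26 and 15.6 without LIP and 31.7, 17 and 21.4 with LIP. The mean was higher with LIP in both, but the groups overlapped. Under 60% HFD it was 30.2, 23.9 and 25.5 without LIP and 49.2, 45.3 and 20.6 with LIP in WT mice. In CCL19-KI mice under 60% HFD it was 25.7, 24 and 13.3 without LIP and 36.4, 33.2 and 27 with LIP. The latter groups did not overlap, while 1 ligatured WT mouse was below all WT mice without LIP. The mean of Ccl11 was thus higher with LIP in 6 of 6 combinations of genotype and diet, with log2 differences from 0.36 (WT, ND) to 1.36 (WT, 40% HFD). The first of these rested on the library labelled WT, ND without LIP, replicate 2, which had the value of 19.6. Without both libraries at odds with their labels, the difference was -0.01 (adjusted p = 0.991) in WT mice under ND, and it was 0.35 in place of 0.64 in CCL19-KI mice under 60% HFD.

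Within single combinations, limma called 0 members for LIP in 48 tests, 4 of which had an unadjusted p under 0.05, and edgeR called 0. Per combination, 213 (WT, 60% HFD) to 4560 (CCL19-KI, 60% HFD) of all genes had an unadjusted p under 0.05 with limma. The share of all genes called was 6.73% in WT mice under ND, 0% in WT mice under 40% HFD, 0% in WT mice under 60% HFD, 1.37% in CCL19-KI mice under ND, 0% in CCL19-KI mice under 40% HFD and 5.66% in CCL19-KI mice under 60% HFD. The nearest to a call was Ccl2 in WT mice under ND, which was 11.1, 1.95 and 6.3 CPM without LIP and 0.138, 0.963 and 4.57 with LIP (log2 difference -1.46, adjusted p = 0.087). Without the library labelled WT, ND without LIP, replicate 2 (and the other at odds with its label) it was called, with -2.02 (adjusted p = 0.0188), where 10.8% of all genes were called. In WT mice under ND the hepatocyte level was 1.54 to 1.85 without LIP and 6.65 to 9.19 with LIP. That level and the ligature thus cannot be told apart here, and its part was not tested. An exact permutation test of 3 against 3 mice cannot give a p below 0.1, so these small groups were compared only in the fit across all genes.

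Of the other members, Ccl8 was 4.35 to 74.6 CPM (median 17.8) without LIP and 2.27 to 69.9 (median 11.9) with LIP. Its log2 difference was -0.88 (SE 0.34, adjusted p = 0.21), and the fitted difference was below 0 in 5 of 6 combinations, while it was 0.04 in CCL19-KI mice under ND, and the groups overlapped in all 6. Ccl6 differed by 0.45 (SE 0.18, adjusted p = 0.234), or by 0.29 (adjusted p = 0.38) without the 2 libraries at odds with their labels, and Ccl2 by -0.40 (SE 0.22, adjusted p = 0.36). None of the 3 passed the test. For LIP, limma called 0 of the 115 marker genes of the cell type lists and 21 had an unadjusted p under 0.05, while edgeR called 0 and had 24. Of all 17852 genes, 2885 had an unadjusted p under 0.05 with limma. The mean log2 level of the adipocyte genes was 8.49 to 10.8 (median 9.91) without and 9.05 to 10.9 (median 10.3) with LIP, that of the macrophage genes 5.56 to 7.67 (median 6.48) and 6.35 to 7.54 (median 6.88), and that of the eosinophil and mast cell genes 0.881 to 3.7 (median 2.3) and 1.38 to 3.35 (median 2.38). Their part in the higher Ccl11 was not tested.

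Between the genotypes, averaged over diet and ligature, no member passed the test in the fit of all 36 libraries. With limma 0 of 8 members and 0.459% of all genes were called, and edgeR called 0 members. An unadjusted p under 0.05 with limma was found for 2 members (Ccl28 and Ccl11) and for 3021 of all 17852 genes. Ccl28 was 0.659 to 2.57 CPM (median 1.98) in WT and 0.283 to 3.95 (median 0.839) in CCL19-KI libraries, with a log2 difference of -0.41 (SE 0.13, adjusted p = 0.115). Ccl11 differed by -0.39 (SE 0.15, adjusted p = 0.182). Without the 2 libraries at odds with their labels, the differences were -0.41 (adjusted p = 0.065) for Ccl28 and -0.41 (adjusted p = 0.0721) for Ccl11, and neither was called, while 7.35% of all genes were. Ccl19 itself, the knocked-in gene, was higher by 2.53 on the log2 scale in CCL19-KI mice (SE 0.25, adjusted p = 8.77e-07) and by 2.80 (adjusted p = 8.92e-11) without those libraries.

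Ccl28, a chemokine of epithelia, was low in CCL19-KI mice under the 40% HFD. WT mice had 1.5, 2.57 and 2.2 CPM without LIP and 2.49, 1.52 and 1.52 with LIP. CCL19-KI mice had 0.668, 0.736 and 0.627 without LIP and 0.301, 0.283 and 0.731 with LIP. All 6 CCL19-KI mice were below all 6 WT mice on this diet. How many of all genes separated the genotypes in this way was not counted. In reads, the WT libraries had 19 to 40 and the CCL19-KI libraries 4 to 11, so counting error is a large part of the latter values. The log2 difference was -0.87 without LIP (unadjusted p = 0.0103, adjusted p = 0.713) and -0.98 with LIP (unadjusted p = 0.00429, adjusted p = 1), and neither was called.

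On the other diets Ccl28 did not keep this order. Under ND without LIP, WT mice had 1.58, 2.06 and 2.1 CPM and CCL19-KI mice 1.09, 0.432 and 0.943, with no overlap (log2 difference -0.69, adjusted p = 0.124). The WT value of 2.06 is that of the library at odds with its label. Under ND with LIP, the WT values of 0.965, 0.659 and 1.93 overlapped with the CCL19-KI values of 0.582, 2.64 and 2.88. Under 60% HFD without LIP, WT mice had 2.48, 2.17 and 2.23 and CCL19-KI mice 2.05, 2.09 and 2.26. With LIP on that diet they had 2.01, 1.93 and 1.96 against 0.539, 0.943 and 3.95. The groups overlapped in both, and a single ligatured CCL19-KI mouse held the highest Ccl28 value of all 36 libraries. The test of the genotype difference of 40% HFD against that of ND gave -0.78 for Ccl28 (adjusted p = 0.347), so a difference between the diets was not shown.

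Ccl11 was lower in CCL19-KI than in WT mice under ND without LIP. The values were 20.9, 8.26 and 15.6 CPM in CCL19-KI and 45.4, 19.6 and 42.1 in WT mice, with a log2 difference of -1.20 (SE 0.37, adjusted p = 0.0281). Here the library labelled WT, replicate 2, at odds with its label, held the WT value of 19.6, which was inside the range of the CCL19-KI mice. Without it and the other such library, the difference was -1.58 (adjusted p = 0.00665), and Ccl2 (-1.67, adjusted p = 0.0323) and Ccl9 (-1.27, adjusted p = 0.034) were called as well. With all libraries, Ccl2 (-1.11, adjusted p = 0.142) and Ccl9 (-0.65, adjusted p = 0.351) were not. In this stratum the adipocyte level was 9.91 to 10.8 in the WT and 8.54 to 9.9 in the CCL19-KI libraries, and its part was not tested. That list holds Adipoq, the locus of the knock-in, at 2103, 751 and 3115 CPM in WT and 526, 436 and 309 in CCL19-KI mice. Averaged over diet and ligature, Adipoq was the 1 of 8 adipocyte genes called for genotype (log2 difference -1.75, limma adjusted p = 1.18e-05). The hepatocyte level was 1.54 to 1.85 in the WT and 5.64 to 11.1 in the CCL19-KI libraries, and with that level as a covariate Ccl11 was not called (-1.21, adjusted p = 0.185). The genotypes did not overlap in the hepatocyte level here, so the fit cannot tell the level and the genotype apart. The call was also lost without WT replicate 1 (adjusted p = 0.111) or 3 (0.102), and without CCL19-KI replicate 2 (0.201) or 3 (0.0816).

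The background in that stratum was high. For genotype, 16.6% of all genes were called under ND without LIP and 19.5% without the 2 libraries. Under 60% HFD without LIP it was 16.8% (17.8% without them), and no member was called there. In the other strata 0.0056% (40% HFD without LIP), 1.03% (ND with LIP), 0.0112% (40% HFD with LIP) and 0.0112% (60% HFD with LIP) of all genes were called, and no member was among them.

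For the 40% HFD against ND within the strata, no member was called in the fit of all libraries, where 6.03% (WT without LIP), 0.207% (WT with LIP), 0% (CCL19-KI without LIP) and 4.92% (CCL19-KI with LIP) of all genes were. Ccl11 in WT mice without LIP differed by -0.94 (adjusted p = 0.124), and by -1.31 (adjusted p = 0.0315) without the 2 libraries, where 8.07% of all genes were called. The hepatocyte level there was 1.54 to 1.85 under ND and 9.26 to 11.2 under 40% HFD, so it and the diet cannot be told apart. In ligatured CCL19-KI mice Ccl28 differed by -0.98 (adjusted p = 0.0631) and Ccl11 by 1.00 (adjusted p = 0.103). Of the 32 tests 3 had an unadjusted p under 0.05 with limma. Per stratum, 1486 (CCL19-KI without LIP) to 4099 (CCL19-KI with LIP) of all genes did so. With edgeR 1 test was called, that of Ccl28 in ligatured CCL19-KI mice (-2.23 on its log2 scale, which adds no 1 to the values, adjusted p = 0.0409).

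**Figure D3:**
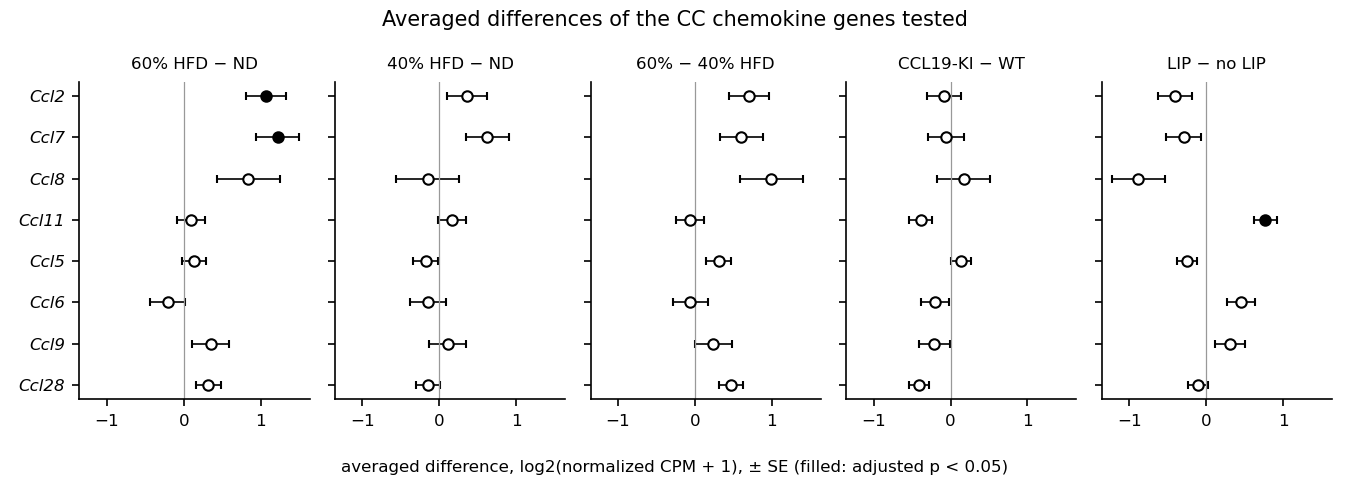
Averaged log2 difference with its SE (x axis) for the 8 tested genes (y axis), in a panel for each comparison of diet, genotype and ligature, with filled points for an adjusted p under 0.05. The filled points are Ccl2 (1.07) and Ccl7 (1.22) for 60% HFD against ND and Ccl11 (0.77) for LIP.

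Over the 12 groups together, Ccl11 (F test of limma, adjusted p = 0.00986) and Ccl28 (adjusted p = 0.0333) differed between groups, as did 24.1% of all genes. The call of Ccl28 was lost (adjusted p 0.0502 to 0.0735) without any of 8 single libraries, which were CCL19-KI replicates 1, 2 and 3 under 40% HFD without LIP, CCL19-KI replicates 1 and 2 under 40% HFD with LIP, CCL19-KI replicate 2 under ND without LIP, WT replicate 1 under ND with LIP and WT replicate 3 under 60% HFD without LIP. Ccl2 (adjusted p = 0.0781), Ccl7 (0.101), Ccl8 (0.19), Ccl5 (0.494), Ccl6 (0.52) and Ccl9 (0.78) did not pass this test. Without the 2 libraries at odds with their labels Ccl11 (0.00393), Ccl2 (0.0229) and Ccl28 (0.0449) passed, as did 31.1% of all genes. Whether an effect differed between genotypes, diets or ligature states was tested in 10 contrasts, or 80 tests of members. Of these 80 tests 6 had an unadjusted p under 0.05 with limma, while 681 to 4509 of all genes did so per contrast. None of the 80 was called with limma or with edgeR, and 0.809% of the tests over all genes were called. The lowest adjusted p was 0.121, for the ligature effect on Ccl28 between the genotypes under ND (1.10 on the log2 scale).

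Ccl6 and Ccl9, the most abundant members, gave no call in any averaged comparison. Ccl6 was 86.5 to 373 CPM (median 215) under ND, 81.9 to 432 (median 184) under 40% HFD and 107 to 294 (median 181) under 60% HFD. Ccl9 was 66.5 to 425 (median 142), 99.4 to 313 (median 140) and 73.9 to 270 (median 201) in the same order. Single mice of 1 group could lie far apart, as in WT mice under ND without LIP, which had 373, 86.5 and 207 CPM of Ccl6 and 425, 66.5 and 138 of Ccl9. For 60% HFD against ND, the log2 difference was 0.35 for Ccl9 (SE 0.24, adjusted p = 0.308) and -0.21 for Ccl6 (SE 0.23, adjusted p = 0.537). The middle one of those values was again that of the library at odds with its label, and the mouse with 425 CPM of Ccl9 also had the highest macrophage level of all libraries (7.67).

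**Figure D4:**
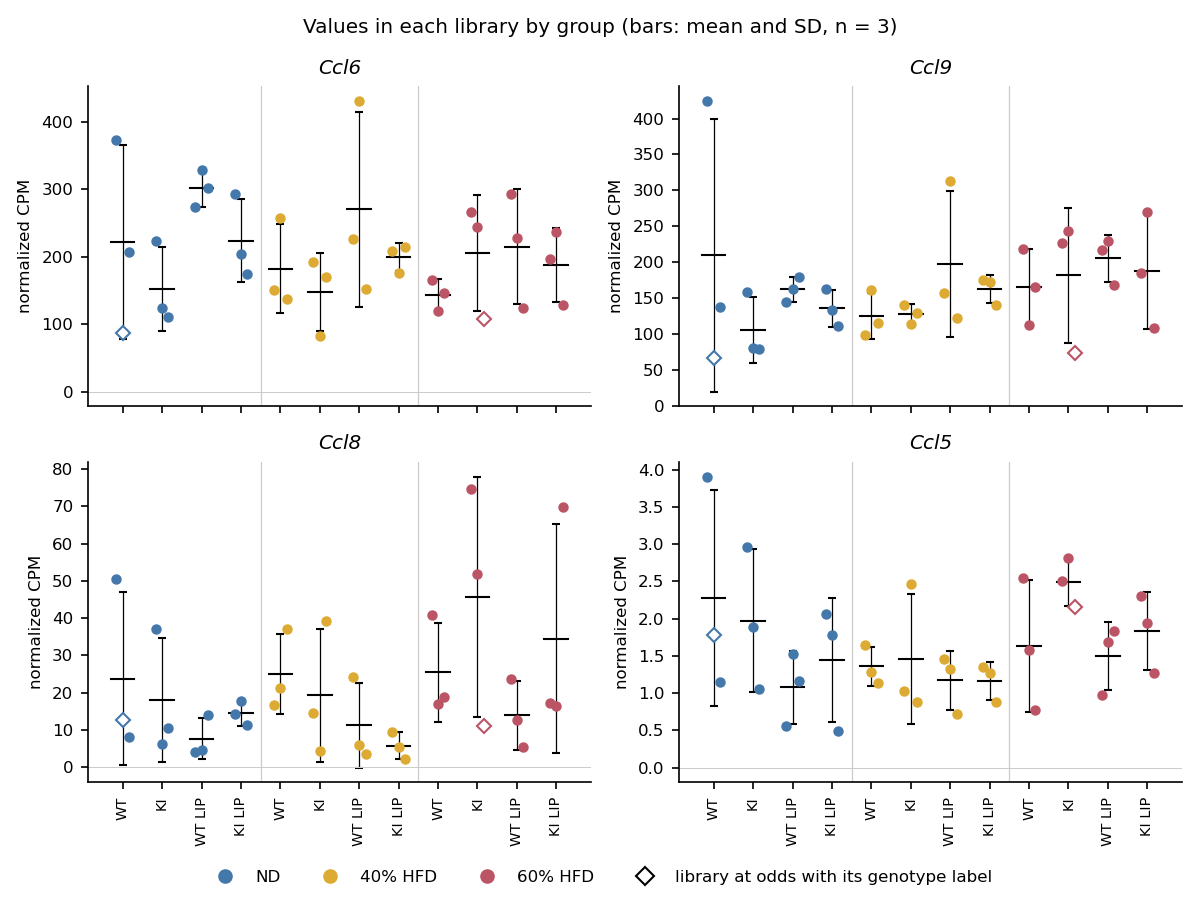
Normalized CPM (y axis) of Ccl6, Ccl9, Ccl8 and Ccl5 in the 12 groups (x axis), with 1 point per mouse, 3 per group, lines for the mean and bars for the SD, and open diamonds for the 2 libraries at odds with their genotype label. The values range widely, with Ccl6 at 81.9 to 432, Ccl9 at 66.5 to 425, Ccl8 at 2.27 to 74.6 and Ccl5 at 0.49 to 3.91.

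The start regions of Ccl6 and Ccl9, which lie 9.24 kb apart, are shown because both genes were the highest members and varied together over the libraries. Each window covers 250 bases before to 50 after the start in RefSeq on GRCm38.p6, read 5′ to 3′ on the strand of the gene. The capitals mark 2 runs of 12 or more bases that both windows hold.
Ccl6 (chr11:83593038-83593337, - strand): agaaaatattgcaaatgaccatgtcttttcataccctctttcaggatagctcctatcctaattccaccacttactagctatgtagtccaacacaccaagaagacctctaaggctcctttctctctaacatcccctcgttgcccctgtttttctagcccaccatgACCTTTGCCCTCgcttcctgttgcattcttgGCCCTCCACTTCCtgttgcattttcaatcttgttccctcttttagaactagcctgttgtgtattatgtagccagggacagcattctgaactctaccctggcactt
Ccl9 (chr11:83578587-83578886, - strand): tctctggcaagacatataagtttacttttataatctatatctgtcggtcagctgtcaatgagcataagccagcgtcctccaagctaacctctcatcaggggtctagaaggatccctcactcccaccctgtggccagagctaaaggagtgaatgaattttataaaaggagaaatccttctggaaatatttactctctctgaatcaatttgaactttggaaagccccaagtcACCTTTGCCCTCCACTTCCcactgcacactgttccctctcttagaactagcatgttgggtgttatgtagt
The runs are ACCTTTGCCCTC, which starts at -86 from the start in Ccl6 and at -20 in Ccl9, and GCCCTCCACTTCC, at -55 and -14, and in Ccl9 they overlap. They were found in 4 (0.0122%) and 6 (0.0183%) of 32851 promoter windows of the same length, read on both strands. The windows of Ccl6 and Ccl9 are themselves among these, because the runs were taken from them. The search took all runs shared by the pair, so it is a description of the sequence and not of a site.

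Ccl5, which attracts T cells, was low in all groups. It was 0.49 to 3.91 CPM (median 1.65) under ND, 0.722 to 2.47 (median 1.28) under 40% HFD and 0.768 to 2.81 (median 1.89) under 60% HFD, from 8 to 72 reads a library. The diets overlapped over nearly the whole range. The log2 difference of 60% HFD from ND was 0.13 (SE 0.16, adjusted p = 0.579), that of LIP -0.25 and that of genotype 0.13, and none was called.

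Of 8 other CC ligands tested, Ccl22, a ligand of CCR4 made by dendritic cells and macrophages, was higher under 60% HFD than under ND (log2 difference 0.68, SE 0.13, adjusted p = 0.00151) and than under 40% HFD (0.54, adjusted p = 0.0478). Ccl25, a ligand of CCR9, was lower under 60% HFD than under ND (-0.31, SE 0.09, adjusted p = 0.0207). The receptors of the members that were called did not pass the test: Ccr2, the receptor of Ccl2 and Ccl7, differed by -0.01 (adjusted p = 0.981) between 60% HFD and ND, and Ccr3, the receptor of Ccl11, by 0.19 (adjusted p = 0.595) with LIP. Ccr1, a receptor of Ccl6 and Ccl9, differed by -0.05 (adjusted p = 0.903) between 60% HFD and ND. Ccr10, a receptor of Ccl28, was at 0.0627 to 0.877 CPM and was not tested. Limma called 0 other ligands and 0 receptors for 40% HFD against ND, for genotype and for LIP.

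Across the 36 libraries, Pearson's r of the log2 values was highest for Ccl2 and Ccl7 (0.90) and for Ccl6 and Ccl9 (0.78). Around the group means it was 0.83 and 0.89 for these pairs. Ccl11 had r = 0.68 with Ccl6, 0.66 with Ccl9 and 0.14 with Ccl2, and around the group means these were 0.78, 0.67 and 0.51. Ccl2 had r = 0.28 with Ccl6 and 0.61 with Ccl9, and around the group means 0.75 and 0.77, so within groups the pairs were not separate from each other. Ccl28 had r from -0.12 to 0.46 with the other members. Each r describes values of the same libraries, which share RNA quality, depth and the tissue sampled.

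The 3 genes most like each member by r over the 36 libraries, outside the CC ligands, were Csf2rb2 (0.84), Rab3il1 (0.83) and Cerk (0.83) for Ccl2, and Rab3il1 (0.81), Sft2d1 (0.80) and Sept11 (0.80) for Ccl7. For Ccl8 they were C1qtnf6 (0.78), Vegfc (0.78) and Lbh (0.77), and for Ccl11 Wnt11 (0.83), Coro1b (0.82) and Smpdl3a (0.81). For Ccl6 they were Ms4a6c (0.87), F630028O10Rik (0.85) and Ifi204 (0.84), and for Ccl9 Cd53 (0.95), Lyz2 (0.93) and Ms4a6d (0.92). Those of Ccl9 are leukocyte genes, and Lyz2 is in the macrophage list. For Ccl5 they were Bax (0.72), Sirpb1a (0.71) and Trac (0.67), the last a T cell receptor gene, and for Ccl28 Ifit3b (0.70), Cdc42bpg (0.60) and Hydin (0.59).

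The levels of the cell type lists gave a similar picture. Ccl9 had r = 0.89 and Ccl6 r = 0.74 with the macrophage level over the 36 libraries. Ccl2 and Ccl7 had r = 0.65 and r = 0.60 with the macrophage level, and 0.61 and 0.60 with that of lipid-associated macrophages. Ccl11 had r = 0.73 with the adipocyte level and r = 0.68 with the macrophage level. Ccl5 had r = 0.67 with the T and NK cell level and Ccl8 at most 0.52 (dendritic cells). Ccl28 had r = 0.43 with the neutrophil level and -0.41 with the hepatocyte level.

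**Figure D5:**
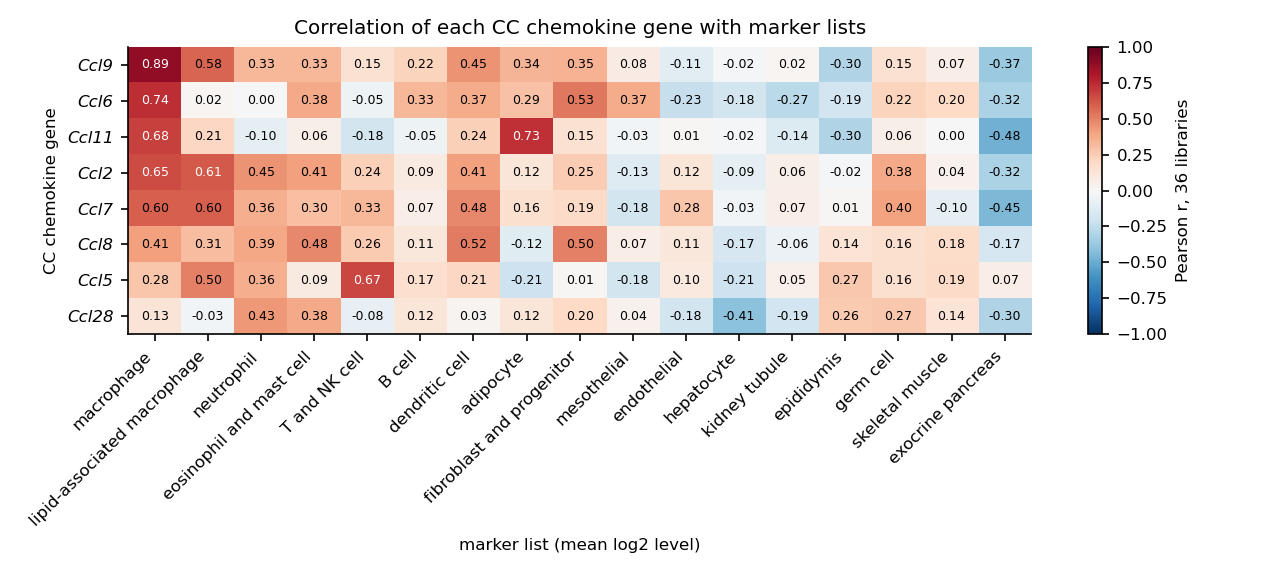
Pearson's r over 36 libraries between the log2 level of each tested gene (rows) and the mean log2 level of each cell type list (columns), as a colour scale from -1 to 1 with the value in each cell. Ccl9 with macrophages (0.89), Ccl6 with macrophages (0.74) and Ccl11 with adipocytes (0.73) stand out.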

How the data were processed

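RNA of eWAT from 36 mice (12 groups of 3) had been depleted of rRNA and sequenced from directional libraries. Per the submitters' processing notes, reads were trimmed with Trimmomatic 0.38, aligned with Bowtie2, counted with RSEM 1.3.0 and normalized with edgeR. The methods of the study name mm10 and the notes GRCm39, and positions printed here are GENCODE M21 on GRCm38. The deposited values are a signal per gene, edgeR-normalized CPM made by the authors, whose sums per library are 799716 to 1208061. Dividing by what 1 read is worth gave whole numbers for 100% of values in every library (tolerance 0.01), so reads were recovered (11962228 to 21581595 a library, median 15573273), of which 3 are worth 0.1415 to 0.2502 CPM. These floors cover counting error only. Symbols were found for 24626 of 24750 genes.

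Values were tested with limma 3.58.1 (R 4.3.3) as log2(CPM + 1) in 1 fit of 12 group means with a mean-variance trend, over the 17852 genes with at least 1 CPM in at least 3 libraries, with Benjamini-Hochberg adjustment over all of them. Fold changes on this scale understate changes of low genes. The quasi-likelihood test of edgeR 4.0.16 on the recovered reads called the same numbers of members in the averaged comparisons (2, 0, 0, 0 and 1). Both were tested on simulated data. Alternatives changed the pseudocount, filter, scaling, eBayes setting, covariates, criteria and libraries. Groups follow the labels, which give 18 mice without LIP.

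The members and lists were chosen with earlier results of these data known. Genes named are the 10 members, the other CC ligands and receptors past the threshold in an averaged comparison, receptors of the members, the 3 genes most like each tested member, Ccl19 and Adipoq, and marker genes where a member moves with them. Gm2564 and Hist1h4m were chosen after their values were seen. No pairing of the mice by replicate number was seen. The promoters of Ccl2, Ccl4, Ccl5, Ccl7 and Ccl11 were not analysed here. A receptor and a sequence window are not reported here.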

Additional observations from a re-analysis of the deposited data

How the results depend on the processing

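For 60% HFD against ND, Ccl2 was called under 12 of 12 alternatives that tested it (log2 difference 0.54 to 1.49) and Ccl7 under 13 of 13 (0.67 to 1.58). Leaving out each library gave 0.93 to 1.23 and 1.08 to 1.41. For LIP, Ccl11 was called under 13 of 13 (0.66 to 0.80) and without each library (0.70 to 0.83, adjusted p at most 0.049). The members called for 60% HFD against ND fell from 2 to 1 under the filter at a mean of 5 CPM, which did not test Ccl2. Under the study's own criteria (unadjusted p up to 0.05, with a ratio from 1.5 upwards or from 0.67 downwards) the counts of members moved. They were 1 for 40% HFD against ND, 3 for 60% against 40% HFD and 2 for LIP. Within strata they were 6, 9 and 4 for genotype, diet and LIP. How many of all genes met both parts of these criteria is not given here, so these counts lack a matching background. At an unadjusted p under 0.05 alone with limma, 4739 of all 17852 genes passed for 40% HFD against ND. For 60% against 40% HFD 2356 passed, and for LIP 2885. Per stratum, 443 to 5898 passed for genotype, 1486 to 5686 for diet and 213 to 4560 for LIP. With the hepatocyte level as a covariate, 1 member was called for genotype (Ccl28, -0.46, adjusted p = 0.0424), as were 80 of all 17852 genes. Within strata 0 members were called for genotype and for diet. With the epididymis level, 2 were called within strata for diet and 1 for LIP. The pseudocount of 0.1 gave 2 within strata for diet, separate fits of ligatured and other mice 0, and the F test called 1 member with a pseudocount of 5 and 1 under the filter at a mean of 5. Over all genes the F test called 3848 of 17852 and 3330 of 11797 under the latter 2 settings. Within strata, the shares of all genes called with these covariates, pseudocounts and separate fits are not given here. Those counts of members thus lack a matching background.

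The alternatives without both libraries at odds with their labels were chosen after seeing the data. They gave 3 members within strata for genotype, 3 for diet and 1 for LIP with limma, and 2 and 2 for genotype and diet with edgeR. Leaving out each library in turn gave 0 to 1 calls for 40% HFD against ND, 0 to 0 for 60% against 40% HFD, 2 to 2 for 60% HFD against ND, 0 to 1 for genotype, 1 to 1 for LIP, 1 to 4 for the F test, 0 to 1 for interactions, and 0 to 2, 0 to 4 and 0 to 2 within strata for genotype, diet and LIP. The lower Ccl11 of CCL19-KI mice under ND without LIP was lost without WT replicate 1 (adjusted p = 0.111) or 3 (0.102) or CCL19-KI replicate 2 (0.201) or 3 (0.0816), and in separate fits (0.0686). The higher Ccl7 of CCL19-KI mice without LIP was lost without the ND replicate 2 (1.25, adjusted p = 0.231) or 3 (0.157) or the 60% HFD replicate 1 (0.103) or 2 (0.0571). The F test of Ccl28 was lost under 2 of 12 alternatives and without any of 8 libraries.

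Signs that turned were of differences that were not called. For 60% against 40% HFD, Ccl6 (-0.06) became 0.02 with the epididymis level, 0.04 without both libraries and 0.00 with edgeR without both, and Ccl11 (-0.06) became 0.01 without both. For 40% HFD against ND, Ccl9 (0.11) became -0.02 with quantile normalization, -0.12 with the epididymis level, and -0.05 and -0.08 without both libraries with limma and edgeR. With the hepatocyte level, Ccl8 (-0.15) became 0.20 and Ccl28 (-0.15) became 0.31. Causes were not tested. With the replicate block, the counts of called members were the same in all 10 families (2 for 60% HFD against ND, 1 for LIP), with Ccl2 at 1.07 (adjusted p = 0.00857) and Ccl11 at 0.77 (adjusted p = 0.0252). Same-numbered libraries of different groups had a median r of -0.0153 (-0.663 to 0.71) around their group means. Differently numbered ones had a median of 0.0172. Pairing by number was thus not seen, but a median cannot exclude it for single pairs.

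Over all genes, calls for genotype rose from 82 to 1292 with limma and 1032 with edgeR without both libraries, and fell to 49 under the filter at a mean of 5 and 41 with quantile normalization. Calls for LIP (58) were 98 with quantile normalization, 95 with edgeR, 380 and 130 with the hepatocyte and epididymis levels, and 123 with edgeR without both. Calls for 60% against 40% HFD (133) were 81 under the filter at a mean of 5, 235 with the epididymis level and 267 and 271 without both. With the hepatocyte level, calls for 40% HFD against ND fell from 1645 to 431 (628 with the epididymis level), for 60% HFD against ND from 3315 to 1944. Quantile normalization lowered the share of calls that were higher under 60% HFD than under ND from 54.8% to 32.6%. Depth limits Ccl3, Ccl4 and Ccl28, which had at most 14, 6 and 53 reads a library.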
